A study of Mus musculus with 6 samples.

Results

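Genes of cyclic AMP signalling were followed in nuclear RNA of cerebellar granule cells with and without a conditional knockout of Ezh1. The 45 genes were chosen by name, for their function: 9 adenylyl cyclases, 15 phosphodiesterases, 2 catalytic and 4 regulatory subunits of protein kinase A (PKA), 3 PKA inhibitors, 9 A-kinase anchoring proteins (AKAPs) and 3 transcription factors that PKA acts on. They are 45 of the 24594 entries of the count table, and 42 of them passed the filter on low counts, as did 13115 entries in all. The rule itself uses no measured value, but the list was drawn up with results of the same comparison in view. The genotype differences below are therefore a description of the members and support no statement about the pathway.

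Cyclic AMP is a second messenger that adenylyl cyclases make from ATP when receptors act on them through G proteins, and that phosphodiesterases break down. It releases the catalytic subunits of PKA from their regulatory subunits, small inhibitor proteins block the freed catalytic subunits, and AKAPs hold the kinase at particular places in the cell. In the nucleus PKA phosphorylates CREB1 and its relatives, which bind the cyclic AMP response element in promoters. In cerebellar granule cells the pathway is known for its part in plasticity at the synapses of parallel fibres, where calcium-stimulated cyclases act in the presynaptic terminal.

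The study compared 3 libraries of the genotype Ezh1(wt/wt);Neurod1-Cre (WT) with 3 of the genotype Ezh1(cKO/cKO);Neurod1-Cre (cKO), all from cerebella of mice aged 7 months. Ezh1 encodes a catalytic subunit of Polycomb repressive complex PRC2, which methylates lysine 27 of histone H3, and the study's title concerns the long-term upkeep of that mark in neurons that no longer divide. Both genotypes carry Neurod1-Cre, whose name refers to the granule neuron transcription factor Neurod1, so the controls share it, and the labels do not say where it was inserted or which part of Ezh1 it removes. Nuclei were fixed, stained for the neuronal antigen NeuN and sorted, so the material was neuronal nuclei of the cerebellum, labelled as granule cells by a marker that other neurons share, and a nuclear level is not the level of cytoplasmic mRNA.

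Libraries held 6340236 to 8284768 counts. Levels are given in counts per 1000000 counts (CPM) after scaling by TMM factors, and differences as the log2 fold change of cKO over WT with its standard error (SE) from edgeR's quasi-likelihood fit over all genes. Adjusted p-values are Benjamini-Hochberg values over the 13115 genes, and a gene was called where its value was below 0.05. The targeted gene Ezh1 was at 71.0, 75.7 and 83.3 CPM in WT and at 52.5, 51.0 and 55.6 CPM in cKO (log2 fold change -0.53, SE 0.10, adjusted p = 0.00672 by edgeR). The labels do not say whether each library comes from its own animal. Replicate 1 of each genotype held Xist at 811 to 831 CPM and the other 4 libraries at 1.39 to 4.46 CPM. Replicate 1 thus stands apart in both genotypes and is not a technical repeat of the same material as replicates 2 and 3. Whether replicates 2 and 3 of a genotype are separate animals is not known, so the variation behind the p-values may be technical in part. The 18 granule cell markers were all tested, with 1 called higher (Neurod1) and 1 lower (Neurod2). Neurod1, for which the Cre is named, was at 138, 154 and 134 CPM in WT and 317, 318 and 287 CPM in cKO. Its log2 fold change was 1.11 (adjusted p = 8.03e-10 by edgeR), and its relation to the Cre and to the member differences was not tested. The 18 markers summed to 6548 to 6731 CPM in WT and 6298 to 7526 CPM in cKO. Markers of other cells were present at lower sums: 923 to 1175 CPM for 12 Purkinje cell markers, 299 to 792 CPM for 14 oligodendrocyte markers, 291 to 349 CPM for 13 interneuron markers, 614 to 657 CPM for 10 unipolar brush cell markers, 165 to 211 CPM for 14 markers of astrocytes and Bergmann glia, 18.7 to 45.6 CPM for 12 microglial markers and 15.4 to 37.3 CPM for 16 markers of vessels and meninges. No marker on these lists was at 0 counts over the 6 libraries, and for each list the sums of the genotypes overlapped. Among unipolar brush cell markers Eomes was at 15.7, 6.13 and 8.98 CPM in WT and 21.6, 18.7 and 21.1 CPM in cKO, without overlap (log2 fold change 1.00, adjusted p = 0.0868 by edgeR), it is the 1 marker of that list that limma-voom called, and its part in the results was not tested. In bulk nuclei, fewer cells of a type and less RNA per cell cannot be told apart.

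Of the 42 tested members 3 were called higher in cKO and 0 lower by edgeR, where 0.579% of all tested genes were called (0.32% higher and 0.259% lower). These are 42 higher and 34 lower genes, and 69 and 32 when libraries were scaled by their size alone. The 3 were Akap1, which encodes the AKAP of the outer mitochondrial membrane, Pde4b, a phosphodiesterase specific for cyclic AMP, and Adcy8, a calcium-stimulated adenylyl cyclase. DESeq2 also called 3 higher and limma-voom 2, where they called 116 and 42 of all 13115 tested genes in either direction. DESeq2 set no adjusted p for 18 of the tested members and for 9109 of all tested genes. At an unadjusted p below 0.05 there were 9 higher members and 1 lower, against 5.8% and 6.05% of all tested genes. The median log2 fold change was 0.07 over the tested members and -0.01 over all tested genes. Values were positive for 28 members and negative for 14, where 48.8% of all tested genes were positive. The libraries of the genotypes did not overlap for 8 tested members that were higher and 2 that were lower, as for 7.88% and 8.39% of all tested genes. Because results were known when the members were named, nothing is read from these shares. The 95% interval lay within 2-fold for 41 of the 42, the exception being Pde1b, and for 81.0% of all tested genes.

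**Figure D1:**
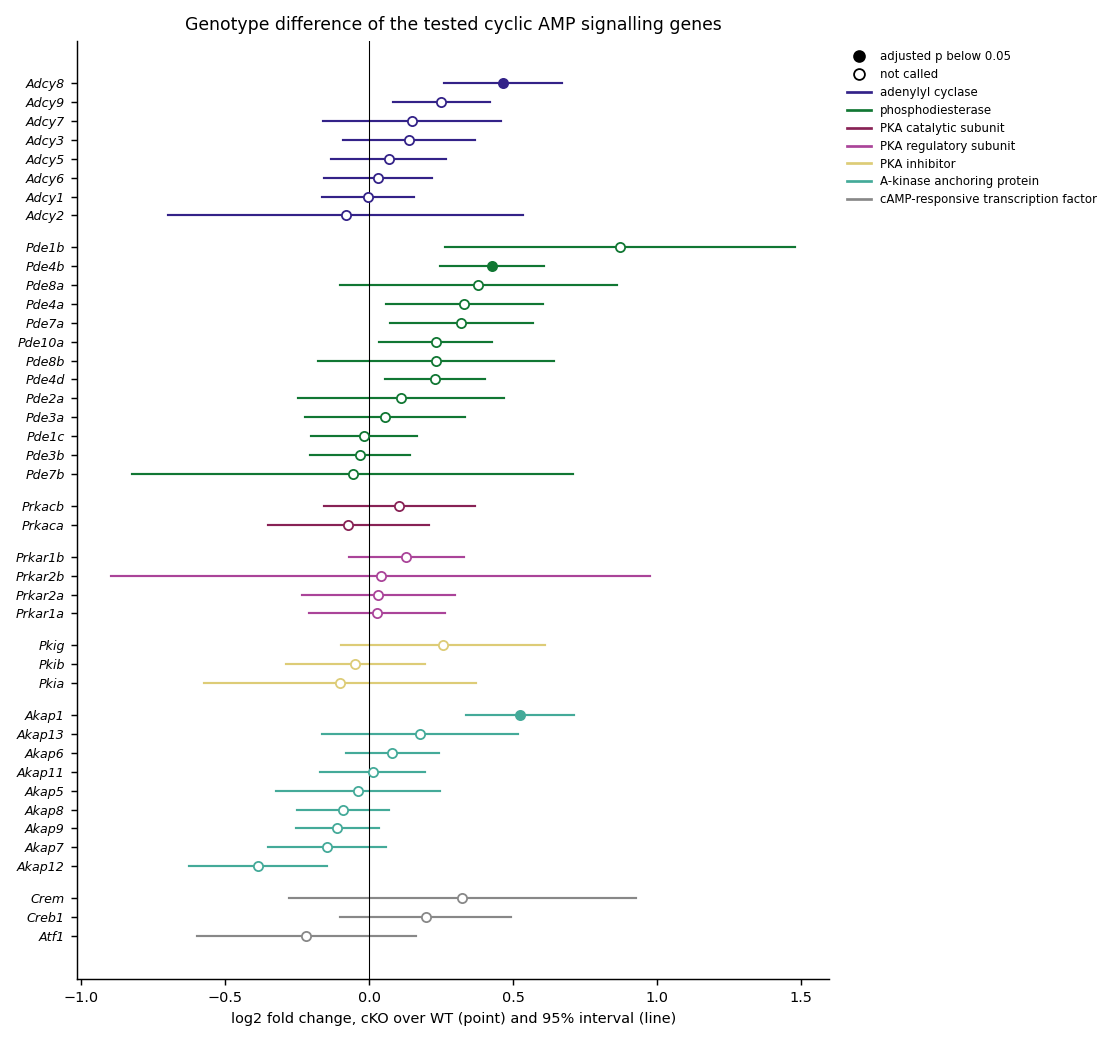
The log2 fold change of cKO over WT (horizontal axis, point) with its 95% interval (line) for the 42 tested members, by role. Filled points mark Akap1, Pde4b and Adcy8, the 3 called members, and 41 intervals lie between -1 and 1.

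Adenylyl cyclases were led by Adcy1. Per kb of exon, the scale used here to compare levels between genes, Adcy1 stood at 103 ± 9.02 CPM per kb (SD, n = 6 libraries) and made up 60.5% of the summed level of the 9 cyclases. Adcy9 followed at 21.9 ± 2.13, then Adcy5 at 12.4 ± 1.24 and Adcy6 at 12.2 ± 0.85 CPM per kb, which do not differ beyond their spread. Adcy8 was at 8.53 ± 1.62, Adcy3 at 7.37 ± 0.55, Adcy7 at 3.58 ± 0.50 and Adcy2 at 1.13 ± 0.17 CPM per kb. These means pool the genotypes: in WT Adcy8 was at 7.18 ± 0.70 and Adcy3 at 7.02 ± 0.29 CPM per kb (SD, n = 3). In cKO Adcy8 was at 9.88 ± 0.75 and Adcy3 at 7.72 ± 0.55 CPM per kb. Adcy4 had 0 to 6 counts in a library and was not tested. The order depends on the scale. Per kb of the whole gene Adcy1 led at 11.2, with Adcy6 next at 4.06, Adcy9 at 0.75 and Adcy5 at 0.59 CPM per kb. Adcy1 and Adcy8 are the classic calcium- and calmodulin-stimulated cyclases of neurons, and Adcy5 and Adcy6 are inhibited by calcium.

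**Figure D2:**
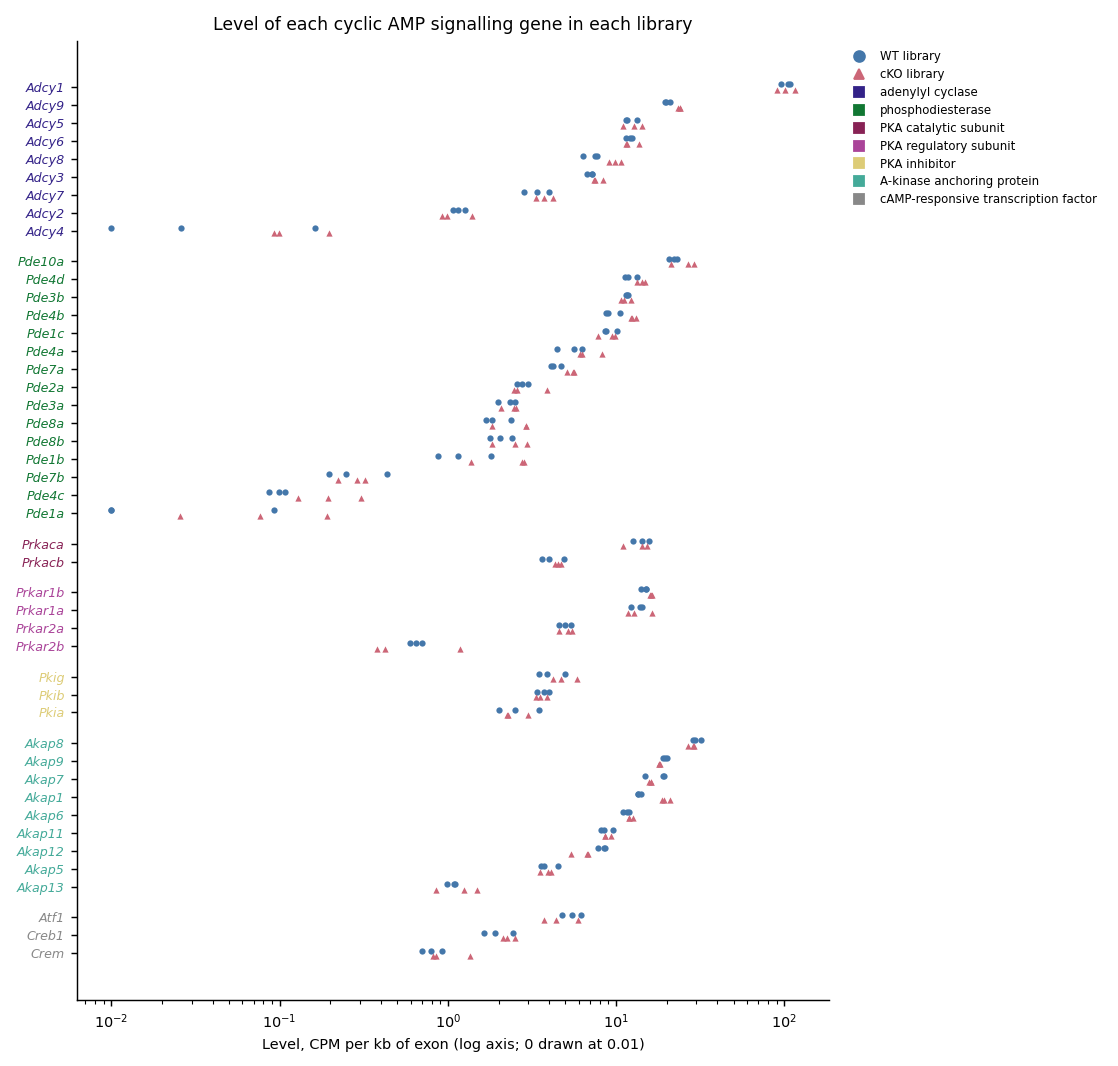
Level of each of the 45 members in CPM per kb of exon (log axis) in each of the 6 libraries, with WT as circles and cKO as triangles, sorted by level within a role. Adcy1, at 103 CPM per kb, is the highest, and Pde1a, at 0.064 CPM per kb, the lowest. Libraries with 0 counts are drawn at the left edge.

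Adcy8 (NCBI gene 11514; chromosome 15, 64699035 to 64922296, GRCm38) was at 62.6, 61.0 and 52.0 CPM in the WT libraries and at 86.8, 80.5 and 74.5 CPM in the cKO libraries. Every cKO library was above every WT library. Its means were 58.5 ± 5.73 CPM in WT and 80.6 ± 6.14 CPM in cKO, a fold of 1.38 (log2 fold change 0.46, SE 0.10, adjusted p = 0.0215 by edgeR). The call was lost without WT replicate 2 (adjusted p = 0.0739), WT replicate 3 (0.214) or cKO replicate 1 (0.230), with replicates 2 and 3 alone (0.132) and in limma-voom (0.0569), and the log2 fold change was 0.38 to 0.52 over the 15 alternatives.

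Adcy9, a cyclase of broad expression, was not called, yet its libraries lay close together within a genotype. It was at 103, 108 and 101 CPM in WT and 122, 124 and 125 CPM in cKO, with every cKO library above every WT library (log2 fold change 0.25, SE 0.08, adjusted p = 0.178 by edgeR). Adcy1, the most abundant member, was at 1327, 1191 and 1351 CPM in WT and 1139, 1450 and 1269.6 CPM in cKO. Its log2 fold change was 0.00 with a 95% interval of -0.16 to 0.15, and the libraries of both genotypes were mixed in order. Adcy3, a cyclase of primary cilia, was at 43.8 ± 1.81 CPM in WT and 48.2 ± 3.46 in cKO without overlap (log2 fold change 0.14, adjusted p = 0.682 by edgeR). It shares part of its span with Cenpo on the other strand, which was at 13.8 ± 2.46 and 19.5 ± 1.22 CPM, and without knowledge of strand use the reads of the 2 genes cannot be told apart. The 4 other tested cyclases, Adcy2, Adcy5, Adcy6 and Adcy7, had log2 fold changes of -0.08, 0.07, 0.03 and 0.15.

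Among phosphodiesterases Pde10a was the highest per kb of exon, at 23.9 ± 3.42 CPM per kb, followed by Pde4d (13.1 ± 1.40), Pde3b (11.5 ± 0.55) and Pde4b (11.0 ± 1.89), and then Pde1c (9.07 ± 0.84). These means pool the genotypes: in WT Pde4b was at 9.39 ± 0.99 CPM per kb, below Pde3b at 11.6 ± 0.16 (SD, n = 3), and in cKO it was at 12.6 ± 0.43 and Pde3b at 11.4 ± 0.83. Per kb of the whole gene the order was another: Pde4a was at 0.99, Pde3b at 0.85, Pde10a at 0.66 and Pde4d at 0.12 CPM per kb. Pde10a and the calmodulin-dependent Pde1c hydrolyse both cyclic AMP and cyclic GMP, and the 4 Pde4 genes encode enzymes specific for cyclic AMP. Pde1a (0 to 8 counts in a library) and Pde4c (4 to 11) were below the filter.

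Pde4b (NCBI gene 18578; chromosome 4, 102087332 to 102607275) was at 111, 91.5 and 94.9 CPM in WT and at 138, 129.7 and 132 CPM in cKO. All 3 cKO libraries lay above all 3 WT libraries. The means were 99.2 ± 10.4 and 133 ± 4.50 CPM, a fold of 1.34 (log2 fold change 0.43, SE 0.09, adjusted p = 0.0165 by edgeR). The call was lost without WT replicate 2 (log2 fold change 0.37, adjusted p = 0.135), WT replicate 3 (0.40, adjusted p = 0.134) or cKO replicate 1 (0.40, adjusted p = 0.191), all by edgeR. The summed oligodendrocyte markers, given because these cells are also known to express Pde4b, were at 506, 442 and 299 CPM in WT and 462, 357 and 792 CPM in cKO. All 14 of them had positive log2 fold changes (median 0.31) and 0 were called by edgeR, with 0 at an unadjusted p below 0.05, and their part in the Pde4b difference was not tested.

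The other members of the Pde4 family had positive values as well. Pde4d was at 159, 141 and 135 CPM in WT and 171, 178 and 160.2 CPM in cKO, again without overlap (log2 fold change 0.23, SE 0.08, adjusted p = 0.242 by edgeR). Pde4a was at 34.3, 47.8 and 43.0 CPM in WT and 62.7, 46.8 and 47.9 CPM in cKO, where cKO replicate 1 stood far above the others and cKO replicate 2 lay below the highest WT library (0.33, SE 0.13, adjusted p = 0.299 by edgeR). With replicates 2 and 3 alone the Pde4a value was 0.06. Pde4c, counted 4, 4 and 4 times in WT against 5, 11 and 7 times in cKO, does not overlap but was below the filter. Summed over the 4 genes, the level was 305, 281 and 273 CPM in WT and 373, 356 and 341 CPM in cKO (ratio of means 1.25).

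**Figure D3:**
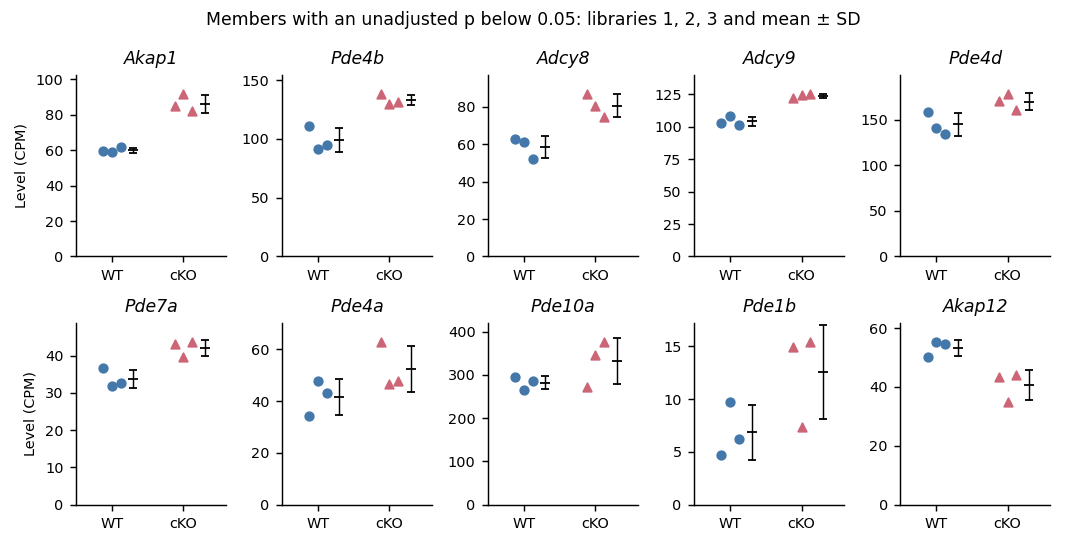
Level in CPM (vertical axes, from 0) of the 10 members with an unadjusted p below 0.05, in WT (circles) and cKO (triangles) replicates 1, 2 and 3 from left to right, with mean ± SD beside them. Akap1, Pde4b, Adcy8, Adcy9, Pde4d and Pde7a have every cKO library above every WT library, Akap12 has every one below, and Pde4a, Pde10a and Pde1b overlap.

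Of the other phosphodiesterases, 3 had an unadjusted p below 0.05 and none of these was called. Pde7a, a cyclic AMP-specific enzyme with low Km, was at 36.6, 31.9 and 32.7 CPM in WT and 43.0, 39.5 and 43.6 CPM in cKO (log2 fold change 0.32, SE 0.12, adjusted p = 0.264 by edgeR). Pde10a was at 295, 266 and 286 CPM in WT and 272, 346 and 375 CPM in cKO, so that cKO replicate 1 lay within the WT range (0.23, SE 0.09, adjusted p = 0.322 by edgeR). Pde1b, a calmodulin-dependent enzyme, had the largest fold change of the 42 tested members and a wide spread, at 4.68, 9.75 and 6.19 CPM in WT and 14.96, 7.41 and 15.4 CPM in cKO. Its log2 fold change was 0.87 (SE 0.29, adjusted p = 0.213 by edgeR), with cKO replicate 2 inside the WT range, and it was called without that library (1.14, adjusted p = 0.0175) and without the filter on low counts (adjusted p = 0.0207).

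The remaining 7 tested phosphodiesterases, none of them called, had log2 fold changes of -0.02 (Pde1c), 0.11 (Pde2a), 0.06 (Pde3a), -0.03 (Pde3b), -0.06 (Pde7b), 0.38 (Pde8a) and 0.23 (Pde8b). Pde2a is stimulated and Pde3a and Pde3b are inhibited by cyclic GMP, and Pde8a and Pde8b are specific for cyclic AMP. Summed over all 15 phosphodiesterases, the level was 1025, 935 and 946 CPM in WT and 1087, 1088 and 1139 CPM in cKO (ratio 1.14). The cyclases had sums of 1726, 1607 and 1745 CPM in WT and 1609, 1897 and 1725 CPM in cKO (ratio 1.03), which overlapped.

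**Figure D4:**
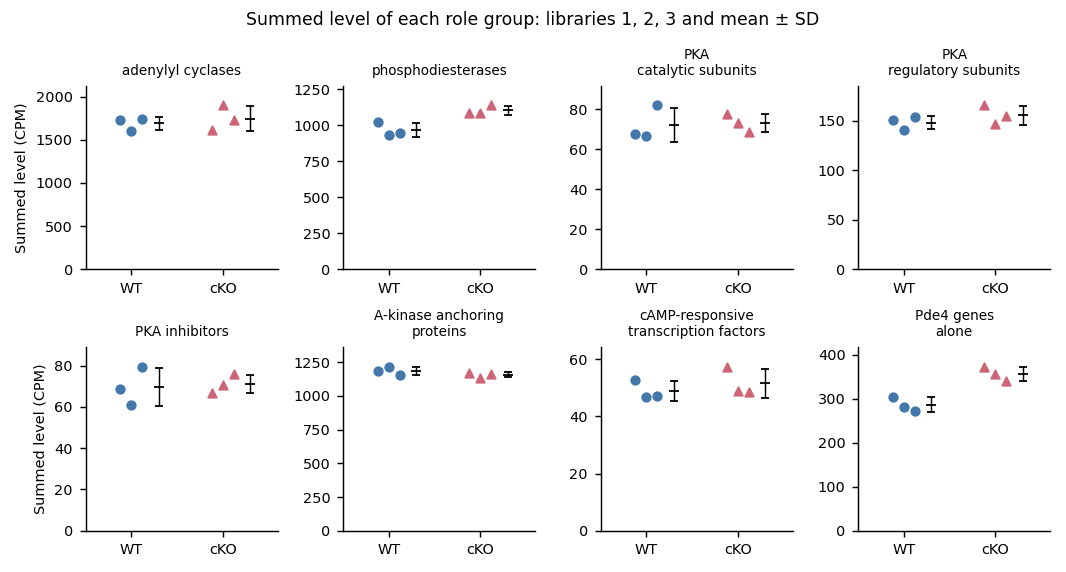
Summed level in CPM (vertical axes, from 0) of each role group, and of the 4 Pde4 genes alone, in WT (circles) and cKO (triangles) replicates 1, 2 and 3 from left to right, with mean ± SD. The phosphodiesterase sum is 935 to 1025 CPM in WT and 1087 to 1139 CPM in cKO, and the sums of the other 6 role groups overlap between genotypes.

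None of the 6 PKA subunits passed the test of edgeR, limma-voom or DESeq2, which set no adjusted p for 3 of them, and 0 had an unadjusted p below 0.05. Prkaca, one of the catalytic subunits, stood at 13.8 ± 1.74 CPM per kb of exon and Prkacb at 4.34 ± 0.45. Prkaca was at 35.4, 31.5 and 39.1 CPM in WT and 38.0, 35.4 and 27.4 CPM in cKO (log2 fold change -0.07, 95% interval -0.35 to 0.21). Prkacb was at 32.0, 35.1 and 42.7 CPM in WT and 39.6, 37.8 and 41.1 CPM in cKO (0.11, -0.16 to 0.37). For both genes the libraries of the genotypes overlapped.

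Regulatory subunits hold the catalytic subunits inactive until cyclic AMP binds. Prkar1b, a neuronal type I subunit, was the highest of them at 15.4 ± 0.87 CPM per kb of exon, with Prkar1a at 13.5 ± 1.68, Prkar2a at 5.02 ± 0.39 and Prkar2b at 0.66 ± 0.29. Per kb of the whole gene Prkar1a was at 2.83 and Prkar1b at 0.44 CPM per kb. Prkar1b was at 57.7, 53.4 and 57.4 CPM in WT and 60.9, 61.3 and 62.2 CPM in cKO, a separation without overlap (log2 fold change 0.13, SE 0.10, adjusted p = 0.659 by edgeR). The span of Prkar1b shares a stretch with Dnaaf5, which was at 14.8 ± 1.21 CPM in WT and 16.9 ± 3.43 CPM in cKO. Prkar1a was at 57.9 ± 4.52 and 59.0 ± 10.5 CPM (0.03, 95% interval -0.21 to 0.26) and Prkar2a at 31.6 ± 2.61 and 32.4 ± 2.83 CPM (0.03, -0.23 to 0.30). Prkar2b, the low type II subunit, was counted 17, 17 and 18 times in WT against 30, 9 and 10 times in cKO, where cKO replicate 1 alone was high (0.04, -0.89 to 0.98).

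Pkia, Pkib and Pkig encode the small pseudosubstrate inhibitors of the catalytic subunit. Pkig was at 4.51 ± 0.85, Pkib at 3.63 ± 0.26 and Pkia at 2.58 ± 0.54 CPM per kb of exon. Pkig and Pkib differ by about 1 SD of Pkig, and per kb of the whole gene Pkib was at 0.39 and Pkig at 0.27 CPM per kb. Pkib was at 44.1, 39.7 and 46.9 CPM in WT and 39.6, 45.6 and 41.4 CPM in cKO (log2 fold change -0.05, 95% interval -0.29 to 0.19). Pkig was at 15.4, 13.9 and 19.8 CPM in WT and 18.7, 16.8 and 23.4 CPM in cKO (0.26, -0.10 to 0.61), and Pkia had a value of -0.10 (-0.57 to 0.37). All 3 stayed above the threshold in edgeR and limma-voom, DESeq2 set an adjusted p for only 1 of them and did not call it, and 0 had an unadjusted p below 0.05.

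AKAPs tether PKA to organelles and membranes. Akap8, a nuclear AKAP that binds chromatin, stood at 29.1 ± 1.71 CPM per kb of exon and was the second highest member after Adcy1. Akap9, of the centrosome and the Golgi apparatus, was at 18.8 ± 0.86, Akap7 at 16.9 ± 1.82, Akap1 at 16.6 ± 3.36, Akap6 of the nuclear envelope at 11.9 ± 0.54 and Akap11 at 8.78 ± 0.55 CPM per kb. Akap12 was at 7.28 ± 1.205, Akap5, the AKAP of the postsynaptic density, at 3.90 ± 0.38 and Akap13 at 1.13 ± 0.22. The order of Akap1 differs with the genotype: in WT it was at 13.7 ± 0.32 CPM per kb and Akap7 at 17.7 ± 2.45 (SD, n = 3), and in cKO Akap1 was at 19.6 ± 1.124, Akap9 at 18.1 ± 0.20 and Akap7 at 16.0 ± 0.23 CPM per kb. On the length of the whole gene instead of its exons, 6 of the 10 highest members stayed among the 10 highest, and Akap8 came before Adcy1 (14.4 and 11.2 CPM per kb of span). On that scale Akap5 was at 2.69, Akap9 at 2.64 and Akap7 at 0.57 CPM per kb.

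Akap1 (NCBI gene 11640; chromosome 11, 88830792 to 88864596) had the smallest p of the members. Its raw counts were 393, 423 and 507 for WT against 589, 594 and 534 for cKO, which is 59.4, 58.9 and 61.5 CPM against 84.7, 91.7 and 82.2 CPM. The WT libraries lay within 3 CPM of each other and all cKO libraries were far above them. The means were 60.0 ± 1.40 and 86.2 ± 4.94 CPM, a fold of 1.44 (log2 fold change 0.52, SE 0.09, adjusted p = 0.00456 by edgeR). Akap1 was called without any single library (adjusted p of 0.00429 to 0.0451), and with replicates 2 and 3 alone its adjusted p was 0.0511. It lies 12.4 megabases from the targeted gene Ezh1 on the same chromosome. Prkar1a lies 8.46 megabases from Ezh1 on the other side and Adcy1 94.1 megabases away. The long noncoding RNA gene 4930556N13Rik overlaps the 5′ part of Akap1 on the other strand and was at 3.43 ± 1.75 CPM in WT and 6.43 ± 1.03 CPM in cKO, with 203 counts over all 6 libraries, so reads of the shared stretch cannot be told apart.

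Akap12, a scaffold also known from vessels and meninges, was the only member with an unadjusted p below 0.05 and a negative value. It was at 50.2, 55.2 and 54.6 CPM in WT and 43.5, 34.9 and 44.02 CPM in cKO, without overlap (log2 fold change -0.39, SE 0.12, adjusted p = 0.136 by edgeR). The summed markers of vessels and meninges were at 37.3, 34.4 and 25.2 CPM in WT and 20.9, 15.4 and 33.7 CPM in cKO. All 5 tested markers of that list had negative values (median -0.45), with 0 called by edgeR and 0 at an unadjusted p below 0.05, and their part in the Akap12 difference was not tested. Akap9 was at 420, 426 and 407 CPM in WT and 385, 391 and 383 CPM in cKO, also without overlap and with a small difference (-0.11, SE 0.07, adjusted p = 0.573 by edgeR). The other 6 AKAPs overlapped between genotypes, with log2 fold changes of 0.18 (Akap13), 0.08 (Akap6), 0.01 (Akap11), -0.04 (Akap5), -0.09 (Akap8) and -0.15 (Akap7).

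**Figure D5:**
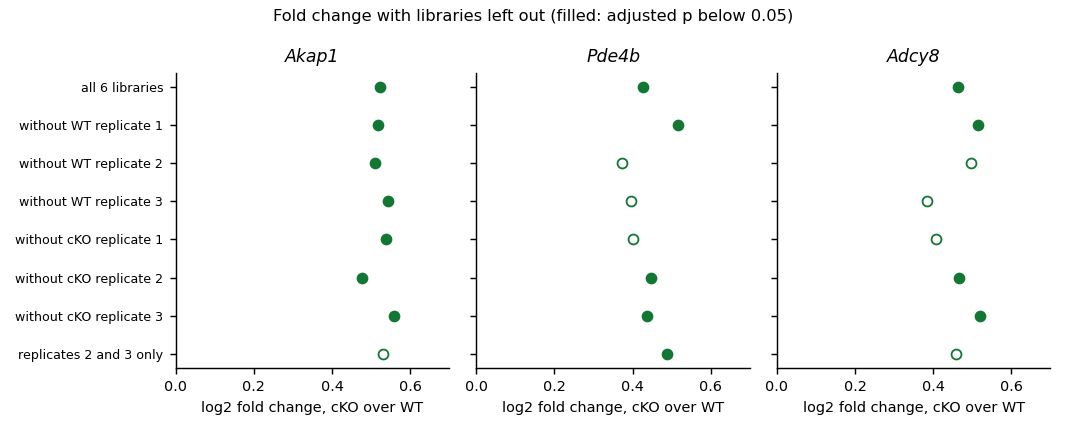
The log2 fold change of cKO over WT (horizontal axes) of Akap1, Pde4b and Adcy8 with all 6 libraries, with each library left out, and with replicates 2 and 3 alone. Filled points have an adjusted p below 0.05: Akap1 stays filled in all 6 fits without 1 library, while Pde4b and Adcy8 are open without WT replicate 2, WT replicate 3 or cKO replicate 1.

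The promoters of 37 of the 45 members were read for the cyclic AMP response element, since CREB1 and its relatives act through it. RefSeq promoter windows on GRCm38.p6 ran from 250 bases before to 50 bases after a start site. They were matched by gene identifier, and 81 windows of members were read, those of Akap1 and Pde4b among them. Adcy8, the other called member, and Crem were among the 8 members not read. Whether promoters of those 8, or start sites of other members that have no window, hold the element was not tested. The full element TGACGTCA, which reads the same on both strands, was in 2.47% of these windows and in 1.79% of all 32851 windows. The core TGACG on either strand, which every full element also holds, was in 22.2% of them and in 20.8% of all. Of the members' windows that were read, both with the full element belong to Prkar1a and overlap each other. Akap1 and Pde4b are shown because they were called, and Prkar1a for its full element. The 2 separate start regions of Akap1, the first of the 4 Pde4b windows, and, of the Prkar1a windows with the full element, the one with more CpG are shown 5′ to 3′ on the strand of the gene, with any match to TGACG, its complement CGTCA or the full element in capitals.
Akap1 outer start, chr11:88864537-88864836, minus strand: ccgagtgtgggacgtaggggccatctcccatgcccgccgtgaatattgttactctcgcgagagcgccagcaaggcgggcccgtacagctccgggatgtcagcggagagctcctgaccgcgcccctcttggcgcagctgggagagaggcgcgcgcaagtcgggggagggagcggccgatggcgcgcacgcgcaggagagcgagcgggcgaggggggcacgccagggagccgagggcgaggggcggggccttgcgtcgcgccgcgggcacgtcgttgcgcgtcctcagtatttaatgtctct
Akap1 inner start, chr11:88851454-88851753, minus strand: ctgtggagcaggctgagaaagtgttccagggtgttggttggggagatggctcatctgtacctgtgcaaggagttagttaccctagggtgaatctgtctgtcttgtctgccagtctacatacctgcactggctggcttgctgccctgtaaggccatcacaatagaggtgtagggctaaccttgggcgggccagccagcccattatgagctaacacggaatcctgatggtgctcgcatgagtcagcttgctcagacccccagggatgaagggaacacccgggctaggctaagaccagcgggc
Pde4b, chr4:102421305-102421604, plus strand: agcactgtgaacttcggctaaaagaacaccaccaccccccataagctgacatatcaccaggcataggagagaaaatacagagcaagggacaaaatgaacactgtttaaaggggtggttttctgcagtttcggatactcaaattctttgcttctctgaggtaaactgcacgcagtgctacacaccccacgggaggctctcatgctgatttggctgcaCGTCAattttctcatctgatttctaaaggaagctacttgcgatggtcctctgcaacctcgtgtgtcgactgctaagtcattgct
Prkar1a, chr11:109650699-109650998, plus strand: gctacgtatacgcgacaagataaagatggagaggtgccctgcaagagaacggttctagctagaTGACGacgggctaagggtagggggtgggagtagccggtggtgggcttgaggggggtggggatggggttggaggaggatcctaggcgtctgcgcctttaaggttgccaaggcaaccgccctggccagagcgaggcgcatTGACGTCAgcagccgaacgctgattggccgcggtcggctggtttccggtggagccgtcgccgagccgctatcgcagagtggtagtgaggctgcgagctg

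These windows differ in make-up. The outer window of Akap1 holds 40 CpG dinucleotides and 70.7% G and C, and the inner one 5 CpG and 56.3%. The Pde4b window holds 8 CpG and 47.0% G and C, and the Prkar1a window 25 CpG and 62.7%. The median was 7 CpG over all windows and 10 over the members' windows. Neither Akap1 window holds the core, the Pde4b window holds it 1 time, and the Prkar1a window holds the full element and a further core. The 3 other Pde4b windows hold no core. The span of Pde4b begins at 102087332, ahead of its first window at 102421305, so a start at its outer end was not read. Pde10a, Pde1c and Pde7b also have no window at the outer end of their spans. Prkar1a, the member with the full element among those read, had a log2 fold change of 0.03.

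None of the 3 transcription factors was called by edgeR. Atf1 was at 5.07 ± 0.94, Creb1 at 2.14 ± 0.33 and Crem at 0.91 ± 0.23 CPM per kb of exon. Creb1, the factor at the end of the pathway, was at 33.7, 22.4 and 26.2 CPM in WT and 34.2, 30.7 and 29.1 CPM in cKO (log2 fold change 0.20, 95% interval -0.10 to 0.49). Crem, whose products include the repressor ICER, was at 4.68, 5.43 and 4.13 CPM in WT and 5.04, 4.79 and 8.003 CPM in cKO (0.32, -0.28 to 0.93). Atf1 was at 14.5, 18.8 and 16.7 CPM in WT and 18.1, 13.4 and 11.4 CPM in cKO (-0.22, -0.60 to 0.16). The libraries overlapped for all 3, and 0 had an unadjusted p below 0.05 or a call by edgeR or limma-voom, while DESeq2 gave none of them an adjusted p.

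The rest of the pathway was taken from 7 lists with 162 genes, of which 112 were tested. With edgeR, limma-voom and DESeq2 alike 0 were called. By edgeR 16 had an unadjusted p below 0.05 (7 higher and 9 lower), where 11.9% of all tested genes did (5.8% higher and 6.05% lower). The median log2 fold change was -0.04, with 51 positive and 61 negative. DESeq2 set no adjusted p for 64 of the 112. Upstream, all 7 alpha subunits of the Gs and Gi families were tested, with a median of -0.07 and 0 at an unadjusted p below 0.05. Gnao1, the abundant neuronal Go subunit, had the smallest p (286 ± 20.9 CPM in WT and 313 ± 14.1 in cKO, log2 fold change 0.13, adjusted p = 0.535 by edgeR), followed by Gnai1 (-0.18, adjusted p = 0.624). Of 55 receptors coupled to these G proteins 26 were tested, 18 with positive values (median 0.11). Gpr3, a receptor with high basal activity towards Gs, was at 1.06, 0.00 and 0.36 CPM in WT and 1.87, 2.01 and 1.54 CPM in cKO (1.94, SE 0.68, adjusted p = 0.229 by edgeR), levels of a few counts per library. The GABA-B subunit gene Gabbr2 was at 186 ± 4.54 and 206 ± 8.89 CPM (0.15, adjusted p = 0.461 by edgeR).

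Of 30 other cyclases, phosphodiesterases and anchoring proteins 22 were tested, with a median of -0.06. At an unadjusted p below 0.05 by edgeR 0 were higher and 4 lower, against 5.8% and 6.05% of all tested genes. Akap17b was at 36.6, 39.7 and 38.8 CPM in WT and 27.2, 32.1 and 25.5 CPM in cKO, without overlap (log2 fold change -0.44, SE 0.13, adjusted p = 0.117 by edgeR). Adcy10, the soluble cyclase stimulated by bicarbonate, was at 16.5, 17.0 and 12.1 CPM in WT and 7.34, 11.9 and 10.6 CPM in cKO (-0.61, SE 0.21, adjusted p = 0.208 by edgeR). Both had every cKO library below every WT library. Of 15 effectors other than PKA 6 were tested (median 0.05), with a value of 0.33 for Rapgef3, an exchange factor for Rap that cyclic AMP activates (adjusted p = 0.389 by edgeR).

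Downstream of PKA, all 17 genes of a list of CREB coactivators, kinases and further factors of the CREB and ATF families were tested (median -0.02). Sik3, a salt-inducible kinase that PKA inhibits, was at 192, 186 and 152 CPM in WT and 239, 204 and 211 CPM in cKO (log2 fold change 0.30, SE 0.09, adjusted p = 0.127 by edgeR), and was called without WT replicate 1 (adjusted p = 0.0439) or without the filter on low counts (0.0341). Atf4, the factor of the integrated stress response, was at 28.3, 31.2 and 32.2 CPM in WT and 24.2, 23.9 and 21.5 CPM in cKO (-0.40, SE 0.13, adjusted p = 0.196 by edgeR). For both genes the genotypes did not overlap. Of 24 targets of CREB 20 were tested (median -0.16, 7 positive and 13 negative), and those of smallest p were Junb (-1.13, adjusted p = 0.132), with WT replicate 1 at 5.44 CPM inside the cKO range of 3.54 to 5.71 CPM, and the prohormone convertase gene Pcsk1 (0.94, adjusted p = 0.293 by edgeR). Without WT replicate 1 Junb (-1.39, adjusted p = 0.00958) and Pcsk1 (1.52, adjusted p = 0.0448) passed the threshold of edgeR, and Junb did so without the filter on low counts (adjusted p = 0.00726).

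All 14 PKA targets and phosphatase regulators were tested (median -0.05). Ppp1r1a, an inhibitor of protein phosphatase 1 that PKA activates, was low, at 2.12, 1.53 and 1.94 CPM in WT and 5.04, 3.24 and 6.16 CPM in cKO, without overlap. Its log2 fold change was 1.36 (SE 0.38, adjusted p = 0.103 by edgeR), and leaving out cKO replicate 2 gave 1.58 (adjusted p = 0.0458), and it was also called without the filter on low counts (adjusted p = 0.0475). Rims1, an active zone protein that PKA phosphorylates, was at 722 ± 21.7 CPM in WT and 664 ± 37.5 CPM in cKO (-0.12, adjusted p = 0.512 by edgeR).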

How the data were processed

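Nuclear RNA of sorted NeuN-positive cerebellar nuclei was measured in 3 WT and 3 cKO libraries. The authors deposited raw whole-number counts per gene, 1 column for each library. Subread and the mm10 genome were used, per the submitters' processing notes. The version of Subread, the annotation, the use of strand and the counting of introns: not given in the sources used here. Of 24594 entries 24570 matched a RefSeq gene of GRCm38.p6, which gave symbols and positions. Exon lengths are unions of GENCODE M21 exons.

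Differences were fitted by edgeR 4.0.16 under R 4.3.3, with filterByExpr defaults (13115 genes, 99.8% of counts), TMM factors (0.982 to 1.02) and robust quasi-likelihood tests of genotype over all 6 libraries. In simulated counts 100 genes were changed by a log2 fold change of 0.5 in size and 100 by 1. The fit called 24 of the former, 76 of the latter and 13 unchanged genes. A gene that was not called may therefore still differ. CPM used the full library totals. The 4 most abundant entries held 32.7% to 35.8% of a library. Alternatives were other scalings, no filter, DESeq2 1.42.0, limma-voom (limma 3.58.1), the replicate number as a block, a term for replicate 1, removal of the 4 most abundant entries, and libraries left out. Low depth limits members of few counts, whose intervals are wide.

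The members and lists were chosen with earlier results of these data known. Named were members with an adjusted or unadjusted p below 0.05, the 2 of smallest p and the 2 most abundant of each role, and up to 3 called genes, or else the 2 of smallest p, of each other list, of which 1 is not reported here. Xist, the cell type markers and, of the genes that overlap a member, Cenpo, 4930556N13Rik and Dnaaf5 were named besides. Brd7 also overlaps Adcy7, Gm10400 overlaps Pde3a and Gm6225 overlaps Crem, and the use of strand is not known there either.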

Additional observations from a re-analysis of the deposited data

How the results depend on the processing

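In none of 15 alternative analyses was a member called lower. The count of members called higher, 3 with all libraries, was 1 with replicates 2 and 3 of each genotype alone (Pde4b) and ranged from 1 to 4 when single libraries were left out (1 without WT replicate 2, WT replicate 3 or cKO replicate 1, each time Akap1). Of 630 recomputed member values 47 turned sign, in 18 members whose log2 fold change was at most 0.18 in size and whose adjusted p was at least 0.734 with all libraries, and no called value turned. Other pathway genes, none called in the analysis as reported, had 2 higher and 3 lower without the filter on low counts, 1 lower with a term for replicate 1, 1 lower with replicates 2 and 3 alone, and 0 to 2 higher and 0 to 3 lower without single libraries. Over all genes, 42 higher and 34 lower became 69 and 32 under library size alone, 146 and 131 without the filter, 54 lower by DESeq2, 23 and 19 by limma-voom, 65 and 60 with a term for replicate 1, and 23 and 20 with replicates 2 and 3 alone; without single libraries the counts were 10 to 116 higher and 3 to 133 lower. The cause was not tested. Ezh1 lost its call without WT replicate 3 (log2 fold change -0.47) or cKO replicate 1 (-0.53), within a range of -0.58 to -0.47 over the single libraries left out. Per length of the whole gene, 6 of the 10 highest members were the same. Deviations of same-numbered libraries from their genotype means had r = 0.15, 0.01 and -0.04 over 13115 genes, so that replicates 1, which share high Xist, had the highest r of all 9 pairs, and the numbers were not taken to pair the libraries. With the replicate block 49 genes were higher and 41 lower, and 3 members were higher, the same genes. Summed levels moved by less than 1 SD under library size alone.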
